A study of Mus musculus with 2 samples.

Results

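The regions described here are the FOS peaks that lie in introns other than the first of their host gene, in mouse granulosa cells after an ovulatory stimulus. They were chosen from the authors' annotated peak list by the annotation text, which names the host gene and gives the number of the intron and the number of introns in that gene. All 1060 intronic peaks carried such a text, and 626 of the 2374 peaks in the list (26.4%, exact 95% interval 24.6 to 28.2) were in intron 2 or a later one, in 531 host genes. The other 434 intronic peaks were in first introns and serve as the closest comparison, beside 840 intergenic and 360 promoter peaks. Cells came from ovaries of wild-type females aged 25 days that were primed with PMSG, which makes follicles grow, and then stimulated with hCG, a hormone that binds the receptor of luteinizing hormone and triggers ovulation. Granulosa cells were released by puncture of the follicles 3 h later and fixed with formaldehyde. The series has 2 libraries from such cells. The FOS antibody library gave the peak list, and the second library, whose label names no antibody, was not analysed here. There is 1 library with values, so no value below has a replicate, an untreated group or an error between animals, and the depth in reads is unknown. Tests compare peaks within this list and describe the list, and intervals cover counting error only. A peak list holds no expression, so the cell type could not be checked against its markers.

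FOS pairs with JUN proteins to form AP-1, a transcription factor that binds the short DNA motif TGANTCA and its complement. AP-1 often binds far from promoters, at enhancers, and many enhancers lie inside introns of the gene they act on or of a neighbouring gene. An intron can also hold the start of another transcript, such as an alternative promoter, a microRNA gene or a long noncoding RNA. For a peak in a late intron, the gene that holds it and the gene with the closest transcription start site (TSS) can be different genes.

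Sequence was at hand for those later-intron peaks that overlap a RefSeq promoter window (GRCm38.p6, the assembly that mm10 names), which runs from 250 bases before to 50 after a gene start. There were 4 such peaks, and in 2 of them the stretch shared by window and peak held an AP-1 motif. These 2 stretches are shown because they hold a match. In both peaks, and in the Ppp2r4 peak named below, the window places a TSS inside the peak where the annotation used by the authors has none close by. The stretches are given 5′ to 3′ on the minus strand, with matches to TGANTCA, searched on both strands, in capitals. The first lies at chr17:86444938-86445168 in a peak in intron 2 of 14 of Prkce, a protein kinase C gene, and the other at chr17:78400276-78400447 in a peak in intron 5 of 8 of Fez2.
Prkce intron 2: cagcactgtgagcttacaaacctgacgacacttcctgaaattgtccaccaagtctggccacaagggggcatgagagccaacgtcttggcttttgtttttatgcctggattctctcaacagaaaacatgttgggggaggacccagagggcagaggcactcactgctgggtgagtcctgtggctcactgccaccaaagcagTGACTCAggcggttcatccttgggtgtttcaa
Fez2 intron 5: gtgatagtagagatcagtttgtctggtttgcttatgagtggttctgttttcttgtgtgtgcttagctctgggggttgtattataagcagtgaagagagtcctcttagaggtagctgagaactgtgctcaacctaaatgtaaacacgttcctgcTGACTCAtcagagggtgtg

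The Prkce peak scored 106 on the authors' scale, a whole number whose unit is not stated and which is used here within the list only (median 67 over all peaks). Its centre was 0.5 bp from the TSS of Gm30284, a long noncoding RNA gene of the RefSeq table, and the centre of the motif was 21.5 bp from the peak centre. The authors' column gave the nearest TSS of the same peak as that of 2010106C02Rik, 157.8 kb away. The Fez2 peak scored 69, its centre was 14 bp from the TSS of the long noncoding RNA gene Gm32336, and its motif lay 20 bp from the centre. The authors' column placed the nearest TSS of that peak 17.8 kb away, at Fez2 itself. The same motif occurred in 7.81% of the 32851 windows of 300 bases, in 6.10% of the stretches of 231 bases cut at the same place as for Prkce, and in 4.59% of the stretches of 172 bases cut as for Fez2. The other overlaps were shorter, 72 bases at Ppp2r4 (now Ptpa, intron 8 of 9, score 72) and 19 bases at Sun1 (intron 2 of 22, score 81), and held no match. For all other later-intron peaks the motif was not searched.

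MicroRNA genes were the nearest gene of 32 later-intron peaks (5.11%), and in each of the 32 the host was another gene. The share was not counted for the other classes of peaks, so it does not mark later introns out. RefSeq places the hairpin where the authors' distance puts it for 28 of the 32. The microRNAs shown were chosen after their values were seen, from hosts with 3 or more peaks, and are those whose hairpin lay downstream of a peak in the direction of its transcription, within 10 kb. For Mir21a and Mir214 the arm that is usually the more abundant is given, and for Mir199a-2 both arms. Capitals mark the seed, bases 2 to 8, and each of the 4 has a seed of its own.
miR-21a-5p: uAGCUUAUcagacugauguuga
miR-199a-5p: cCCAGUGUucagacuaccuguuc
miR-199a-3p: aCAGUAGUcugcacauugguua
miR-214-3p: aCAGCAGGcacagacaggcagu

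Vmp1, which encodes a membrane protein of autophagy, held a peak in intron 10 of 11 that scored 141, and its centre lay 2.86 kb upstream of the hairpin of Mir21a. The Mir21a hairpin is on the minus strand of chromosome 11 at 86584067 to 86584158, and the peak is at 86586818 to 86587224. Vmp1 also held peaks of score 151 in intron 5 and of score 32 in intron 7. Dnm3, a dynamin gene, held 2 peaks in intron 14 of 19, of score 97 and 79, and 1 in intron 13 of score 77. The peak of score 97 was 1.66 kb upstream of Dnm3os, a noncoding transcript, 1.85 kb upstream of the hairpin of Mir199a-2 and 7.40 kb upstream of Mir214. The peak of score 77 lay on the other side, 13.5 kb downstream of Mir214. For the Vmp1 peak in intron 10 and all 3 Dnm3 peaks the nearest-gene column thus names a noncoding transcript inside the host.

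Later-intron peaks scored much like peaks of the other classes. Their scores ran from 15 to 2234 with a median of 68, against 68 for first introns, 68 for intergenic peaks and 64 for promoters. Of the later-intron peaks, 328 of 626 (52.4%, exact 95% interval 48.4 to 56.4) scored at or above the list median, against a background of 51.0% of all peaks. The share was 52.1% for first introns, a difference of 0.32 percentage points (Newcombe 95% interval -5.77 to 6.42, two-sided Fisher's exact test, p = 1 after Benjamini-Hochberg adjustment over 3 comparisons). For intergenic peaks it was 52.4% (difference 0.015 points, interval -5.14 to 5.17, Fisher's exact test, adjusted p = 1). For promoter peaks it was 46.7% (Fisher's exact test, difference 5.73 points, interval -0.75 to 12.1, adjusted p = 0.258, raw p = 0.0859). With 1 peak counted per host gene the difference from promoters passed (55.7% against 46.7%, Fisher's exact test, adjusted p = 0.0281); that alternative keeps the highest score of each host, while promoter peaks have no host and all stay. At or above the upper quartile of 99 scored 165 later-intron peaks (26.4%), against 26.0% of all peaks. Widths ran from 268 to 1109 bp, and 48.7% of later-intron peaks were at or above the list median of 342 bp against 50.2% of first-intron peaks (difference -1.51 points, interval -7.60 to 4.60, Fisher's exact test, p = 0.662; background 50.3%). Across the 626 peaks the score rose with the width (Spearman's rank correlation 0.49) and hardly moved with the intron number (0.04) or with the distance to the TSS (0.07). For the 485 peaks with a known strand it was 0.14 with the relative position along the gene and 0.11 with the distance from the 5′ end. These are descriptions across peaks of 1 library, which are not independent replicates.

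**Figure D1:**
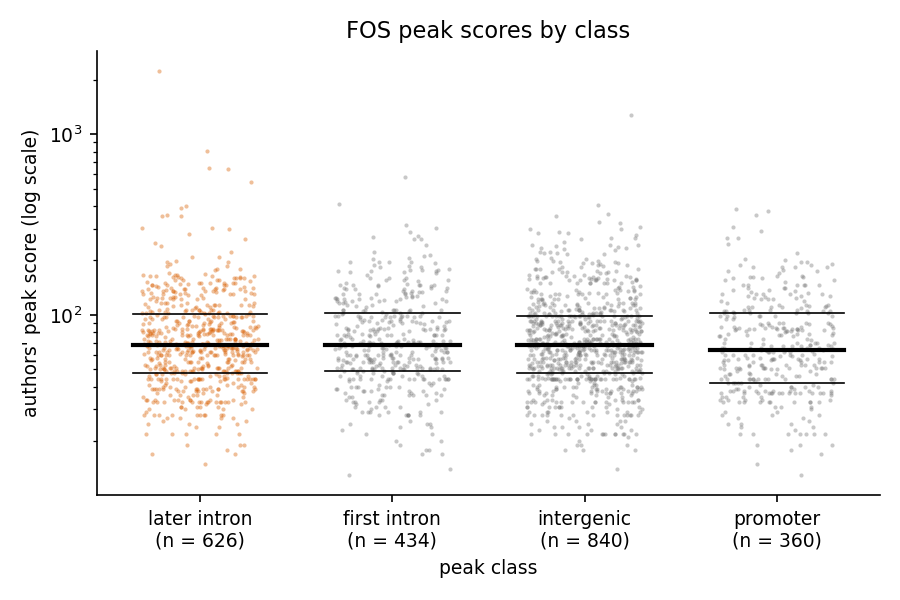
Authors' peak score (log axis) of each FOS peak, 1 point per peak, for later introns, first introns, intergenic regions and promoters; the thick line is the median and the thin lines the quartiles. The medians of 68, 68, 68 and 64 are close together, while the highest point of the plot, 2234, is a later-intron peak.

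The highest scores of the list were nonetheless often in later introns. These held 6 of the 10 highest peaks and 10 of the 20 highest, but 23 of the 100 highest and 58 of the 238 highest (24.4%), close to their 26.4% of all peaks. These counts were made after the scores were seen and carry no test. The top peak, of score 2234 at chromosome 13, 45623642 to 45624422 (mm10), is in intron 5 of 6 of Atxn1, the gene of ataxin-1, and the next peak of the list, an intergenic one, scored 1277. Next in later introns was a peak of score 808 in intron 16 of 20 of Nell2, which encodes a secreted EGF-repeat protein. Kdm1a, the gene of the histone demethylase LSD1, held a peak of score 652 in intron 7 of 18, 32.5 kb from its own TSS. Efr3b held a peak of score 637 in intron 17 of 22, for which the nearest TSS was that of Pomc, the precursor of ACTH, 18.4 kb away. Jazf1, a zinc finger gene, followed with a score of 544 (intron 2 of 4), and Tanc2, a scaffold protein gene, with 400 (intron 8 of 25).

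Elmo1, Gfpt2 and Sfxn1 were also among the 10 highest of the later-intron peaks, at ranks 17, 15 and 19 of the whole list. Elmo1, the partner of DOCK proteins in Rac activation, carried a score of 354 in intron 15 of 21. Gfpt2, an enzyme of the hexosamine pathway that supplies sugars for hyaluronan, reached 358 in intron 5 of 18, and Sfxn1, a mitochondrial serine transporter, 351 in intron 8 of 10. The 10 highest later-intron peaks were 483 to 781 bp wide, all above the list median of 342 bp.

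Later-intron peaks lay deep in long genes. The median intron number was 4 (quartiles 2 and 9) in genes with a median of 13 introns, and 176 peaks (28.1%) were in intron 2, 57 (9.11%) in the last intron of their gene. The median score was 69.5 in intron 2, 66 in introns 3 to 5, 71 in introns 6 to 10, 67 in introns 11 to 20, 77 beyond intron 20 and 77 in last introns. Intron 1 and intron 2, on either side of the rule, had median scores of 68 and 69.5, and their median distances to the nearest TSS were 8.97 and 35.0 kb. The 5 in the intron with the highest number were in Dnah8 (intron 85 of 92, score 44), in Adgrv1 (introns 83, 83 and 77 of 89, scores 102, 44 and 89) and in Macf1 (intron 80 of 92, score 151). Dnah8 encodes an axonemal dynein, Adgrv1 a very large adhesion receptor and Macf1 a protein that links actin to microtubules. For the 485 peaks whose host has a known strand in the RefSeq promoter table, the median position was 58.9% of the way along the gene from its 5′ end, 63.7 kb in, against 21.0% and 10.7 kb for 340 first-intron peaks. The position follows in part from the rule, so it was not tested.

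**Figure D2:**
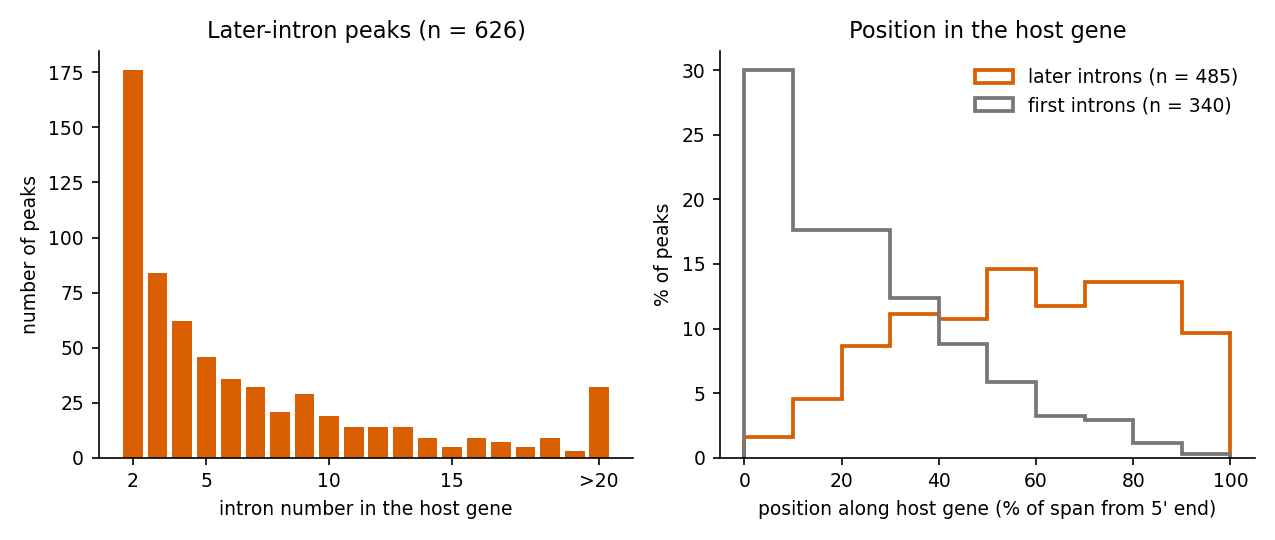
Left, number of later-intron peaks by intron number, with introns above 20 pooled in the last bar. Right, share of peaks in equal steps of the host gene's RefSeq span, counted from its 5′ end, for 485 later-intron and 340 first-intron peaks; first-intron peaks crowd the 5′ end and later-intron peaks spread over the rest of the gene.

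Of the 626 peaks 595 (95.1%) had a protein-coding host. The 504 protein-coding genes with a later-intron peak had a median span of 114.5 kb, against 66.2 kb for the 368 (1.68% of all protein-coding genes) with a first-intron peak and 17.2 kb for all 21887 protein-coding genes. Of these hosts 277 (55.0%) were longer than 100 kb, against 11.1% of all protein-coding genes. Seen from the genes, 2.30% of protein-coding genes held a later-intron peak, and 11.4% of those longer than 100 kb did. How much sequence introns make up was not measured, so a higher share in long genes says nothing of the density of peaks.

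The median distance from a later-intron peak to the nearest TSS was 42.2 kb (quartiles 18.0 and 87.9). It was 8.97 kb for first-intron peaks, 32.6 kb for intergenic peaks and 18.2 kb over all peaks. Beyond 50 kb lay 270 (43.1%) of the later-intron peaks, 37.5% of the intergenic ones, 9.91% of the first-intron ones and 26.8% of all peaks. These distances follow in part from the rule and were not tested. They use the authors' TSS annotation, which lacks some RefSeq starts, as at Prkce above. The farthest later-intron peak was in intron 10 of 39 of Ptprd, a receptor tyrosine phosphatase gene. It lay 1147 kb from the TSS of Tmem261 and had a score of 47. Among the 5 farthest were also a peak in the last of the 8 introns of Wwox (score 84), 625.2 kb from the TSS of Maf, then peaks 485.4 kb from a TSS of Foxp1 (a forkhead factor, score 30) and 430.6 kb from that of Kcnma1 (a potassium channel, score 78).

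The nearest gene was often not the host. The names agreed for 396 of the 626 later-intron peaks (63.3%, exact 95% interval 59.4 to 67.0) and for 392 of the 434 first-intron peaks (90.3%, interval 87.1 to 92.9), where the share over all intronic peaks was 74.3%. The difference was -27.1 points (interval -31.6 to -22.2, Fisher's exact test, two-sided, p = 4.07e-25). It kept its sign and its call when peaks within 10 kb of a TSS were left out (63.0% against 86.1%, Fisher's exact test, p = 2.56e-10). The share was 79.5% in intron 2, 68.2% in introns 3 to 5, 61.3% in introns 6 to 10, 39.3% in introns 11 to 20 and 18.8% in the 32 peaks beyond intron 20. A late intron lies farther from the start of its own gene, and how much of the difference this placement sets was not tested.

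**Figure D3:**
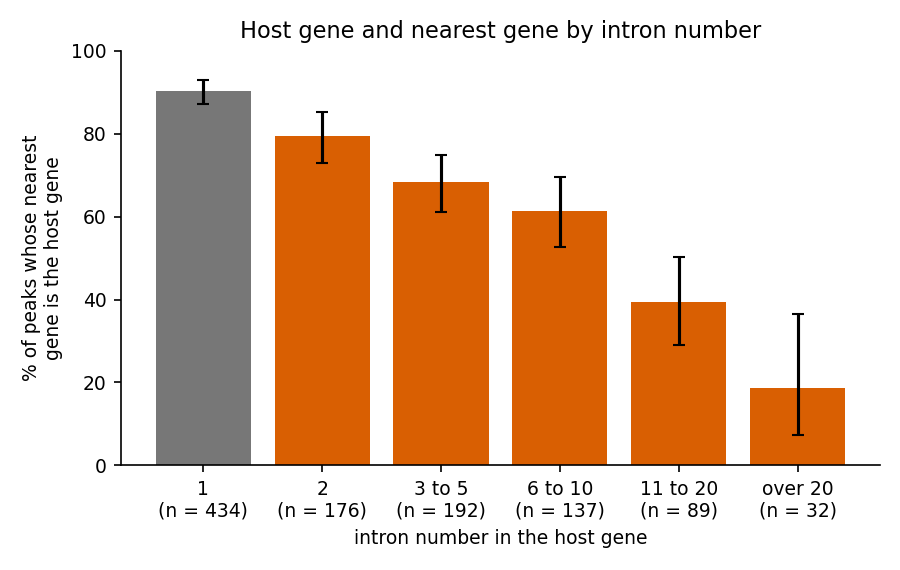
Share of intronic FOS peaks whose nearest gene by TSS is the gene that holds them, by intron number, with exact 95% intervals; the grey bar is intron 1. The share is 90.3% in intron 1 and 18.8% beyond intron 20.

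Of the 230 peaks with a nearest gene of another name, 106 (46.1%) had that gene beyond the 3′ end of the host and 1 beyond its 5′ end. The start of the host lies between the peak and any gene beyond the 5′ end. This split thus follows in part from placement and was not tested. For 58 (25.2%) the nearest gene was inside the span of the host, and for 8 of those 58 peaks it was protein-coding. For 24 it overlapped the host in part, for 38 the place could not be given, and for the 3 peaks in intron 6 of 8 of Pakap the other name, Akap2, is the same RefSeq gene. The median score was 70 when another gene was nearest and 67 when the host was. Of the 10 highest-scoring peaks of this kind, 5 are given above (Atxn1 with Gmpr as the nearest gene, Nell2 with LOC100043315, Efr3b with Pomc, Jazf1 with Tax1bp1 and Tanc2 with Cyb561). Also among the 10 were a peak of score 301 under the host name Mir5098, a peak of score 301 in 1700007G11Rik (Mir703, 45.4 kb), a peak of score 280 in intron 8 of 11 of Sufu, a repressor of hedgehog signalling (Trim8, 42.2 kb), and a peak of score 241 in intron 43 of 49 of Dock6 (Mir7083, 5.52 kb).

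A few hosts are misplaced names. For 618 of the 626 peaks (98.7%) the RefSeq span of the host covers the peak. The other 8 were under Mir8115 (3 peaks, scores 44, 44 and 37), Mir466o (2, scores 63 and 28), Mir5098 (301), Mir680-2 (34) and Bc1 (33), and RefSeq places each of these small noncoding genes on another chromosome. Mir8115, on chromosome 5 in RefSeq, appears in the annotation as a gene with 8 introns on chromosome 11. Their numbers of introns are therefore not those of the named genes. Without such peaks 52.9% of the later-intron peaks scored at or above the median.

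A gene with several peaks was the exception. Of the 531 hosts 458 had 1 later-intron peak, 53 had 2, 18 had 3, and Atxn1 and Aff3 had 4. The same host and the same intron number as another later-intron peak were given for 93 of the 626 peaks. That count ignores the total of introns, which can differ, as in Zbtb20 (5 of 8 and 5 of 6), so it is not an exact count of shared introns. The 4 of Atxn1 scored 2234, 90, 159 and 44 and spanned 305 kb; the annotation gives intron 5 of 6 for the first 2 and intron 2 of 7 for the others. Aff3, which encodes a subunit of a transcription elongation complex, had peaks of score 126 and 62 in intron 5 and of 122 and 43 in intron 4 of 21, all within 66.4 kb. Pakap, of an A-kinase anchor protein, had 3 in intron 6 (179, 66 and 123). Chst11, a chondroitin sulfotransferase gene, had 3 in intron 2 of 2 (161, 95 and 92), and Dlgap1, of a postsynaptic scaffold, 3 in intron 6 of 11 (148, 79 and 142). Igf1r, the receptor of insulin-like growth factor 1, a growth and survival signal of follicles, had 3 in intron 2 of 20 (64, 58 and 97) within 17.2 kb. In Pakap, Chst11, Dlgap1 and Igf1r all 3 peaks thus share an intron.

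The other genes with 3 peaks spread them over 2 or 3 introns, apart from the misplaced name Mir8115. They were Vmp1 and Dnm3, described above, 1700007G11Rik (75, 301 and 136), Tns1, a focal adhesion protein (44, 134 and 51), Camk2d, a calcium-dependent kinase (71, 122 and 40), and Fmn1, an actin nucleator (55, 114 and 74). Itpr1, the calcium release channel of the endoplasmic reticulum, had 60, 103 and 66, Adgrv1 had 44, 102 and 89, and Etv6, an ETS repressor, had 35, 81 and 97. Baiap2, an adaptor protein of the actin cytoskeleton, had 54, 74 and 30, Osbpl6, an oxysterol-binding protein, had 69, 48 and 74, Lpp, a focal adhesion protein, had 44, 60 and 33, and Runx2 had 33, 33 and 31. Of the 531 hosts 32 also had a peak in intron 1, beside 1.68% of all protein-coding genes, whose median span is shorter. The best later-intron peak outscored the best first-intron peak in 19 of the 32, and the reverse held in 13. Neither count was tested.

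**Figure D4:**
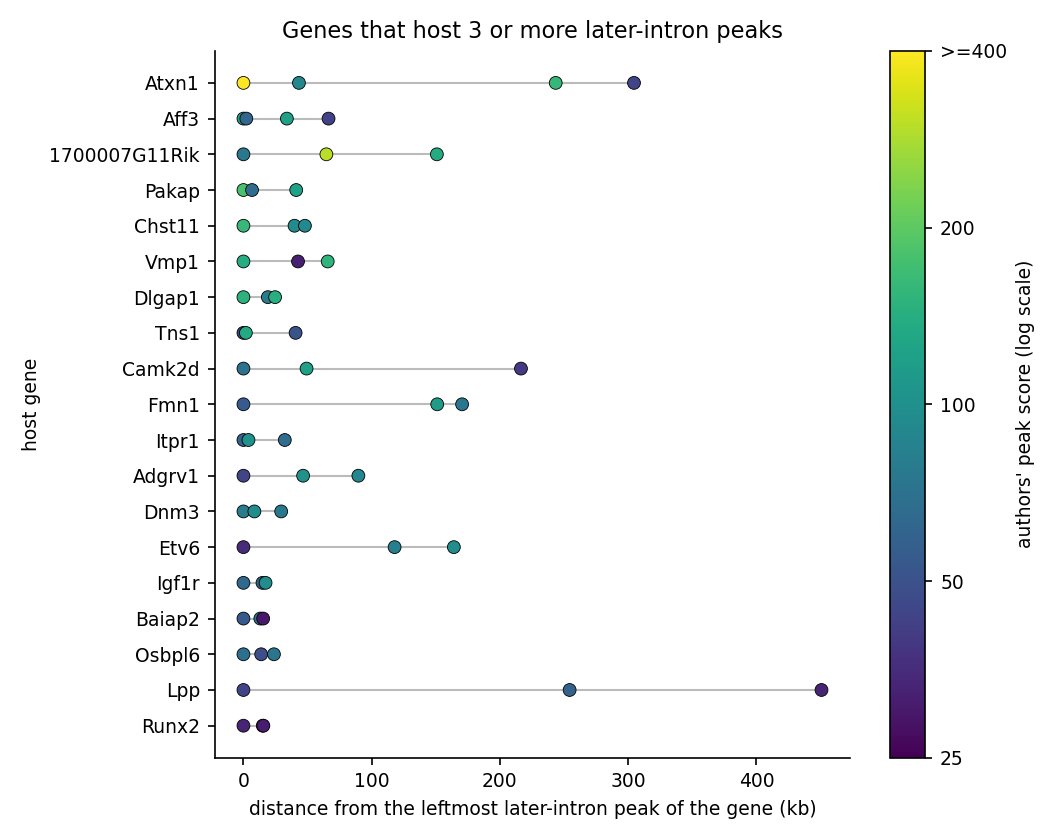
Later-intron peaks in the 19 genes with 3 or more (Mir8115 left out), 1 row per gene, placed by the distance in kb from the leftmost peak and coloured by the authors' score on a log scale. The peaks of Igf1r, Baiap2 and Runx2 lie within 17.2 kb, and those of Lpp are spread over 451 kb.

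Later-intron peaks had a close neighbour less often than first-intron peaks, and about as often as promoter peaks (29 of 360, 8.06%, not tested). Another FOS peak of any class lay within 10 kb, centre to centre, of 52 later-intron peaks (8.31%, exact 95% interval 6.27 to 10.7), against 67 of 434 first-intron peaks (15.4%) and a background of 10.9% of all peaks. The difference was -7.13 points (interval -11.3 to -3.20, Fisher's exact test, two-sided, adjusted p = 7.09e-04 over 2 comparisons). Against intergenic peaks (11.7%) it was -3.36 points (interval -6.39 to -0.22, Fisher's exact test, adjusted p = 0.0368). Close peaks are often each other's neighbours, so they are not independent units. The tests and intervals of this paragraph take them as independent. Within 5 kb the difference from first introns was still past the threshold (5.59% against 9.68%, Fisher's exact test, adjusted p = 0.0312), and within 50 kb it was not (29.4% against 34.3%, adjusted p = 0.186). The comparison with intergenic peaks no longer passed at either distance (Fisher's exact test, adjusted p = 0.283 at 5 kb and 0.645 at 50 kb), nor in 3 further alternatives. With 1 peak per host gene, which thins intronic and not intergenic peaks, it was larger (4.71% against 11.7%, a difference of -6.96 points, Fisher's exact test, adjusted p = 1.31e-05). Each peak left out there shares its host with a kept peak, and neighbours were still counted in the full list. The lower share thus follows in part from the thinning. Among peaks of score 99 or more the difference from first introns was larger too (6.06% against 19.1%, -13.1 points, adjusted p = 0.00200 by the same exact test). Peaks of every class count as neighbours, promoter peaks included, and their part in the difference was not tested. The closest pairs were Runx2 in intron 2 of 5 (centres 0.469 kb apart), Inpp5f in intron 9 of 19 (0.520 kb, scores 68 and 124) and Gsg1l in intron 5 of 6 (0.907 kb, scores 163 and 34), beside a pair under Mir8115 (0.392 kb); they were chosen after their values were seen.

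Of 32 genes of the ovulatory response, 6 held a later-intron peak (18.8%, exact 95% interval 7.21 to 36.4), beside 2.30% of all protein-coding genes. The median length of the list was 17.1 kb, against 17.2 kb for all protein-coding genes, and 5 of the 32 were longer than 100 kb. Of the 6 hosts 3 were that long (Runx1, Runx2 and Nr5a2). Runx1, which encodes a DNA-binding factor that the hormone surge induces, led with a score of 129 in intron 3 of 4, 76.4 kb from a TSS of its own. Rgcc, a cell cycle regulator, scored 77 in intron 2 of 4, and Inhba, the activin and inhibin beta A gene, 69 in intron 2 of 2. Tnfaip6, a hyaluronan-binding protein of the cumulus matrix, held a peak of score 60 in intron 5 of 5 that the nearest-gene column gives to Rif1, 17.1 kb away. Runx2, a factor of the luteinizing follicle, had the 3 peaks of score 31 to 33, and Nr5a2, a nuclear receptor that ovulation requires, a peak of score 29 in intron 8 of 8. Of the 32 genes 3 held a peak at or above the list median score of 67 (9.38%, against 1.31% of all protein-coding genes), and 7 were the nearest gene of a later-intron peak (21.9%, against 2.09%). All lists were chosen with earlier results of these data known, so their counts are descriptions with no test.

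Of 24 granulosa transcription factors 5 held a later-intron peak (20.8%), and 3 of the 5, Runx1, Runx2 and Nr5a2, are in the ovulatory list too. Of all protein-coding genes 2.30% were hosts, and 11.4% of those longer than 100 kb, as 9 of these 24 are. With scores at or above the list median the share was 12.5%. The others were Esr2, an oestrogen receptor gene that granulosa cells express (score 139, intron 4 of 7, 28.9 kb from its TSS), and Foxo3, a forkhead factor gene (71, intron 2 of 3). Esr2 was also the 1 host among 34 nuclear receptors and coregulators. Of 20 steroid synthesis genes 2 were hosts, Fdxr, part of the electron supply of mitochondrial P450 enzymes (80, intron 2 of 11), and Nr5a2. Of 21 AP-1, MAF and BACH genes, Bach1, a repressor at antioxidant genes, was the host (99, last intron of 4).

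Signalling lists had from 7.69% to 10.3% of their genes as hosts, between the 2.30% of all protein-coding genes and the 11.4% of those longer than 100 kb. That long were 9 of 39 EGF and MAPK genes, 21 of 37 cAMP and PKA genes and 8 of 39 TGF-beta family genes. Of 39 genes of EGF and MAPK signalling 4 were hosts, Map3k5, a stress kinase (210, intron 18 of 29), Rasal2, a Ras GTPase activator (151), Sos2, a Ras exchange factor (114), and Dusp16, a MAP kinase phosphatase (55). The nearest gene of the first 3 was another gene, Map7, Tex35 and Vcpkmt. Of 37 cAMP and PKA genes 3 were hosts, the phosphodiesterase gene Pde7b (131, intron 2 of 12), the anchor protein gene Akap13 (44) and the exchange factor gene Rapgef4 (18), and none of the 37 was the nearest gene of a later-intron peak. Of 39 TGF-beta family genes 3 were hosts, Smad7, the inhibitory Smad (107), Bmpr1b, a BMP receptor (76), and Inhba.

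Cytoskeletal and adhesion genes gave the largest number of hosts of the 21 lists, 9 of 47 (19.1%, interval 9.15 to 33.3), but 27 of the 47 genes are longer than 100 kb and 11.4% of such genes were hosts. Elmo1 (354 and 84), the guanine nucleotide exchange factor gene Arhgef12 (146), the myosin gene Myo10 (134) and Dock9, an exchange factor for Cdc42 (95), had the highest scores. The shares were 10.6% for matrix, 9.52% for chromatin and 12.5% for autophagy genes, where 18 of 47, 18 of 42 and 13 of 40 genes are longer than 100 kb. Of 47 matrix genes 5 were hosts, led by Efemp1, a fibulin (199), Col15a1, a basement membrane collagen (192 and 159), Col4a1 (104, intron 2 of 51) and Tnfaip6. Both peaks of Col15a1 have Tgfbr1, the TGF-beta type I receptor gene, as the nearest gene, 42.3 and 59.3 kb away. Of 42 chromatin regulators 4 were hosts, Kdm1a (652), the remodeller gene Chd2 (130), Arid1b (66), of a subunit of the BAF complex, and the acetyltransferase gene Kat6b (62). Of 40 autophagy, ubiquitin and cell death genes 5 were hosts, among them the ligase gene Nedd4 (179), Klhl29 (85), Atg10 (58 and 49) and Usp46 (46), and of 39 cholesterol and lipid genes the receptor genes Lrp1 (116, intron 10 of 88) and Lrp8 (55).

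Several lists had no host. None of 21 Hippo, 24 hypoxia and vascular, 21 clock, 14 oocyte, 14 leukocyte and 14 theca and stromal genes held a later-intron peak, which at these sizes allows shares of up to 16.1%, 14.2%, 16.1% and, for each of the last 3, 23.2% (exact 95% upper bounds). All these bounds lie above the 2.30% of all protein-coding genes, so 0 hosts in lists of this size does not set them apart from the background. Of 14 endothelial genes, Cdh5, the endothelial cadherin, held a peak of score 51 in intron 2 of 11. Of 20 neuronal genes, 16 of them longer than 100 kb, 2 were hosts, among them Dlg2 (130, intron 10 of 22).

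**Figure D5:**
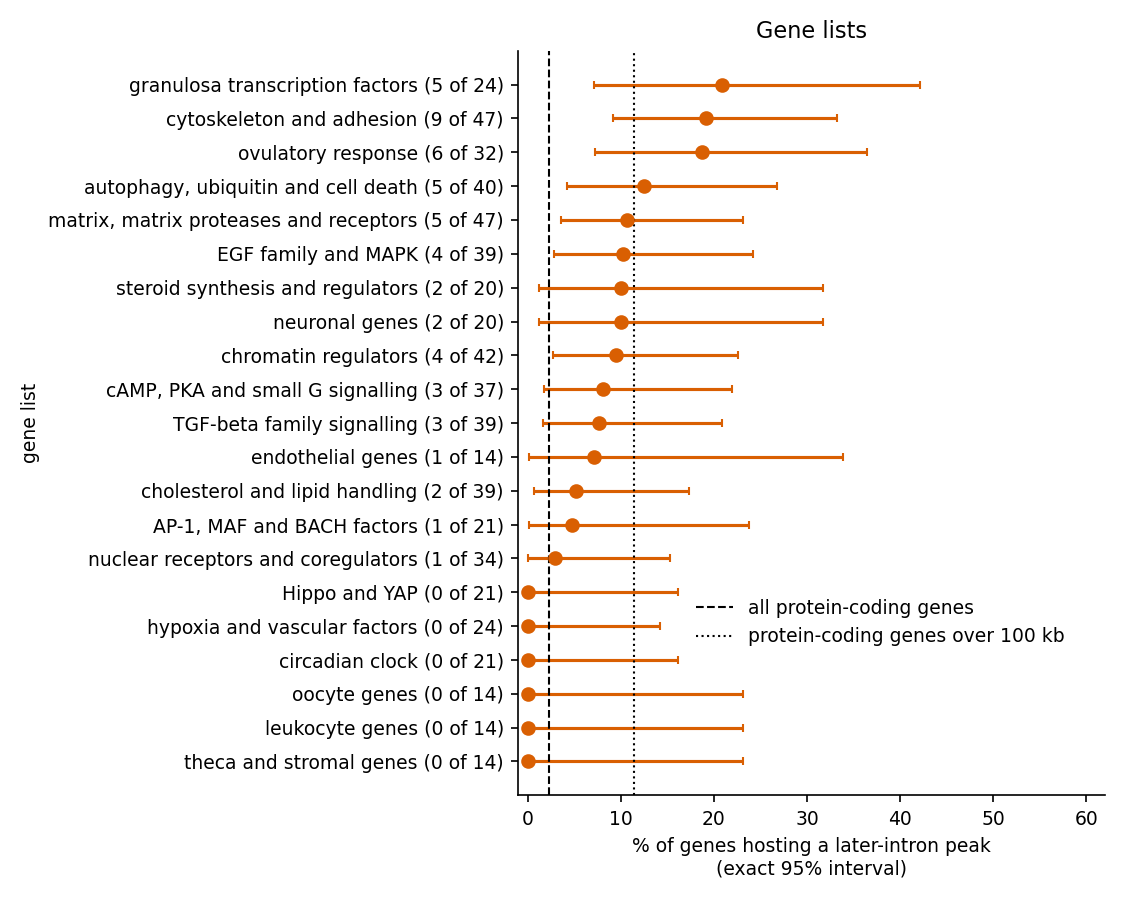
Share of the genes of each of the 21 lists that hold a later-intron peak, with exact 95% intervals and the counts in brackets. The dashed line marks all protein-coding genes (2.30%) and the dotted line those longer than 100 kb (11.4%); the 3 highest lists lie at 18.8% to 20.8%, and 6 lists are at 0.

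A small group of later-intron peaks sat close to a TSS of the authors' annotation. By the authors' distance column 14 of the 626 peaks lay within 2 kb of one. That compares with 109 of the 434 in first introns and 548 of all 2374 peaks. A first intron begins closer to the host's own TSS, so the contrast follows in part from the rule. The peaks in Prkce, Fez2, Ppp2r4 and Sun1 that overlap a RefSeq promoter window are not among the 14, since that column puts them 14.8 kb or more from a TSS. The highest scores among the 14 were at 1700061I17Rik (106, 893 bp downstream of its TSS), B230319C09Rik (99), Dnm3 (97, upstream of Dnm3os), Rsrp1 (93), a splicing-related gene, and Pld1 (90), a phospholipase D gene. The Pld1 peak, in intron 2 of 26, lay 1.31 kb upstream of a TSS annotated for Pld1 itself, 44.4 kb into the gene. In all, 9 of the 396 peaks whose nearest gene was the host (2.27%) lay upstream of a TSS of that host, as against 21 of 392 in first introns (5.36%). Besides Pld1 these were in Elmo1 (2 peaks, 39.6 and 86.1 kb upstream), Ppp1r12b (2 peaks, 15.2 and 1.03 kb), Dlc1 (114 kb), Nedd9 (45.0 kb), Sgk1 (47.9 kb) and Sept9 (99.98 kb), named after their values were seen. Elmo1, Dlc1, a GTPase-activating protein, Nedd9, a focal adhesion scaffold, and Sgk1, a kinase induced by steroids and gonadotropins, thus have annotated starts that lie downstream of a FOS peak inside the gene.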

How the data were processed

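Peaks in narrowPeak form were annotated by the authors with HOMER's annotatePeaks and a gene GTF, per the file headers. The submitters' processing notes name mm10, Trim Galore, BWA, deepTools 3.5.1 and MACS2 2.2.7.1. How peaks were thresholded, filtered or set against a control is not given in the sources used here. Peak scores are the authors' deposited score values, and other deposited values are the coordinates, the annotation text and the distance from peak centre to TSS. Peaks come from 1 library and were not pooled.

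Hosts and nearest genes were matched to a RefSeq table of GRCm38.p6 by accession, symbol or older symbol, and all 626 hosts matched. Strands come from the RefSeq promoter table. Shares carry exact Clopper-Pearson 95% intervals and differences Newcombe intervals. Counts of peaks were compared with two-sided Fisher's exact tests at 0.05, adjusted by Benjamini-Hochberg within each family; the test was tried on simulated data. Named genes are the 10 highest peaks, hosts with 3 or more peaks, ovulatory hosts, up to 4 hosts of each other list, the 10 highest peaks with another nearest gene, the 5 farthest from a TSS, the 5 of highest intron number and the 5 highest within 2 kb of a TSS. Members and lists were chosen with earlier results of these data known. Tests of the AP-1 motif over all peaks were planned and not run, because no genome was used here. Some genes that the rule names are not reported here. Python 3.11.15, numpy 2.4.6, scipy 1.17.1, pandas 2.3.3 and matplotlib 3.10.9 were used.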

Additional observations from a re-analysis of the deposited data

How the results depend on the processing

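Of 38 alternative values for the 7 comparisons, 26 kept their direction and their side of the threshold. The difference in the share of peaks whose nearest gene is the host passed in every alternative run. None of these held the distance to the host's own start equal, so they do not show how much placement sets. The score differences, which did not pass on all peaks, changed sign: with the threshold at the upper quartile of 99 they were -0.14 points against first introns and -0.86 against promoters, with intron number 3 or more -0.074 against first introns and -0.38 against intergenic peaks, and without peaks within 2 kb of a TSS, which leaves 12 promoter peaks, -14.1 against promoters. With 1 peak per host gene the difference from promoters was 9.08 points and passed. For a neighbour within 10 kb, the difference from intergenic peaks was -4.17 points with scores of 99 or more, -3.44 with intron number 3 or more, -3.04 without peaks within 2 kb of a TSS, -1.43 at 5 kb and -1.20 at 50 kb, and that from first introns was -4.94 at 50 kb; none of these passed. With 1 peak per host gene the difference from intergenic peaks was -6.96 points, a value that the thinning of intronic peaks sets in part. With scores of 99 or more the difference from first introns was -13.1 points. Both passed. The cause was not tested. Without peaks within 2 kb of a TSS, later introns held 65.3% of intronic peaks against 59.1%. With the nearest gene in place of the host, the share of genes was 2.56% for EGF and MAPK and 0 for the cAMP, endothelial and neuronal lists; at scores of 67 or more it was 8.51% for the cytoskeleton and 0 for endothelial genes. Comparisons without misplaced hosts and by gene ID were chosen after seeing the data and changed no call. The planned motif alternatives were not run, for want of sequence. No paired analysis was possible because only 1 library has a file. The files give no read counts, so how depth limits the list is unknown.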

Other observations

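Later-intron peaks were found on every autosome and, with 3 of the 626, on the X chromosome. Their share of all peaks on a chromosome ran from 18.3% (13 of 71) on chromosome 19 to 33.3% (42 of 126) on chromosome 17, beside 26.4% over the list. These shares were looked at without a test.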
